A study of Homo sapiens with 8 samples.

Results

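Genes of the amino acid and integrated stress response, the ATF4 pathway, were followed in L363 cells given the IKKβ inhibitor MLN120B. The 8 genes are ATF4, DDIT3, PPP1R15B, ASNS, PHGDH, CBS, SLC7A5 and SLC3A2. Members were the array features that the platform annotation assigns to 1 of these genes and that had values on 5 or more of the 8 arrays. This left 18 of 20 annotated features, of 10860 features on the array with that many values, and they represent 7 of the 8 genes. ATF4 and DDIT3 had 5 features each, CBS had 3, SLC3A2 had 2, and ASNS, SLC7A5 and PPP1R15B had 1 each. No feature was annotated to PHGDH, the enzyme that opens serine synthesis, and 5073 features had no gene listed, so PHGDH was not analysed here.

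L363 is an established human cell line of malignant plasma cells, and all values come from this 1 line. Cells received 12.5 µM MLN120B at 37 °C for 8 h (2 samples), 12 h (3 samples) or 24 h (3 samples). Each array set Cy5-labelled cDNA of treated cells against Cy3-labelled cDNA of cells given the solvent DMSO alone. The question the design addresses is how blocking IKKβ, which activates NF-κB, changes gene expression in these cells over time. A value here is the deposited log2 ratio of the channels minus the median of its array. The ratio is likely MLN120B over DMSO, so that a negative value means lower with the inhibitor; neither its direction nor its log base is stated. Treated cells carried Cy5 on every array, and the effects of dye and treatment cannot be told apart. Ratios of single arrays are listed in the order of the sample numbers in the labels. Ratios hold no expression levels, so the identity of the cells could not be checked against plasma cell markers, and in bulk RNA fewer cells expressing a gene and less RNA per cell cannot be told apart.

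In the integrated stress response, stress kinases phosphorylate the translation factor eIF2. Protein synthesis as a whole then falls while the ATF4 mRNA is translated more, so ATF4 is controlled in large part at the level of protein, which these arrays do not measure. ATF4 and its partners bind composite C/EBP-ATF elements and switch on genes for amino acid synthesis, amino acid uptake and tRNA charging. Plasma cells make antibody at high rates and draw heavily on these supplies.

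The composite element is shown because it is what links many target genes to ATF4. RefSeq promoter windows (GRCh38.p14), from 250 bases before to 50 bases after each annotated start, were given for all 8 genes, 15 windows in all. They were searched on both strands for TGATGNAA, whose reverse complement is TTNCATCA. One window each of 3 members held the letters (3 of 15 windows), against 3.62% of the 35116 windows of all genes. The match of ASNS begins 68 bases before the start and that of PPP1R15B 227 bases before it. The match of SLC3A2 begins 37 bases after 1 of its starts and lies in reverse. The 3 matches follow with their neighbouring bases, 5′ to 3′ on the strand of the gene, the matched letters in capitals.
ASNS, chr7:97872458-97872487, minus strand: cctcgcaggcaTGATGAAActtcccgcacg
PPP1R15B, chr1:204412026-204412055, minus strand: cccgccccggcTGATGCAAcctcacgctgc
SLC3A2, chr11:62881725-62881748, plus strand: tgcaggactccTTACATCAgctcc
A match describes these letters only, and no factor binding was measured. Sequence outside the windows was not searched, so a member without a match here may hold the letters elsewhere.

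The arrays differed widely in spread, and the spread followed the identifiers in the labels. The numbers of these database identifiers fall into 3 groups of neighbouring values, called runs here. Run 1 comprises the sample 3 arrays (12 h and 24 h). Run 2 comprises sample 2 of the 8 h group with the later arrays of sample 1, and run 3 comprises sample 1 of the 8 h group with the later arrays of sample 2. The SD over all features was 1.00 to 1.42 on the arrays of run 2 and 0.21 to 0.58 on the other 5. Arrays held values for 6344 to 13007 features. Means of the members over the 3 times are therefore given with and without run 2. Without run 2 the 8 h mean is the value of 1 array, sample 1. That array then carries the same weight as the 12 h mean or the 24 h mean.

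Over the 3 times no member passed the test. Means of 4 members lay above 0 and those of 3 below, from -0.50 ± 0.26 for SLC7A5 to 0.21 ± 0.16 for ASNS (SE of limma's fit), and their median was 0.070, or 0.057 over the 6 members fitted without run 2. Over all 5320 rows tested the median was -0.011, and 47.8% lay above 0. Limma's test called 0 of the 7 members at an adjusted p under 0.05, the smallest adjusted p being 0.87, and it called 0 of all 5320 rows (0% of rows). At an unadjusted p under 0.05 there were 0 members and 187 rows (3.52%). The same test called 0 rows (0%) and 0 members at 8 h, at 12 h, at 24 h and for the differences of 24 h from 8 h and from 12 h; at an unadjusted p under 0.05 it gave 118 (2.22%), 172 (3.23%), 112 (2.11%), 43 (0.808%) and 37 (0.695%) rows, and among the members PPP1R15B at 12 h and for 24 h against 12 h. No member had all its values on 1 side of 0, which 2.51% of the 3420 rows with 8 values had.

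**Figure D1:**
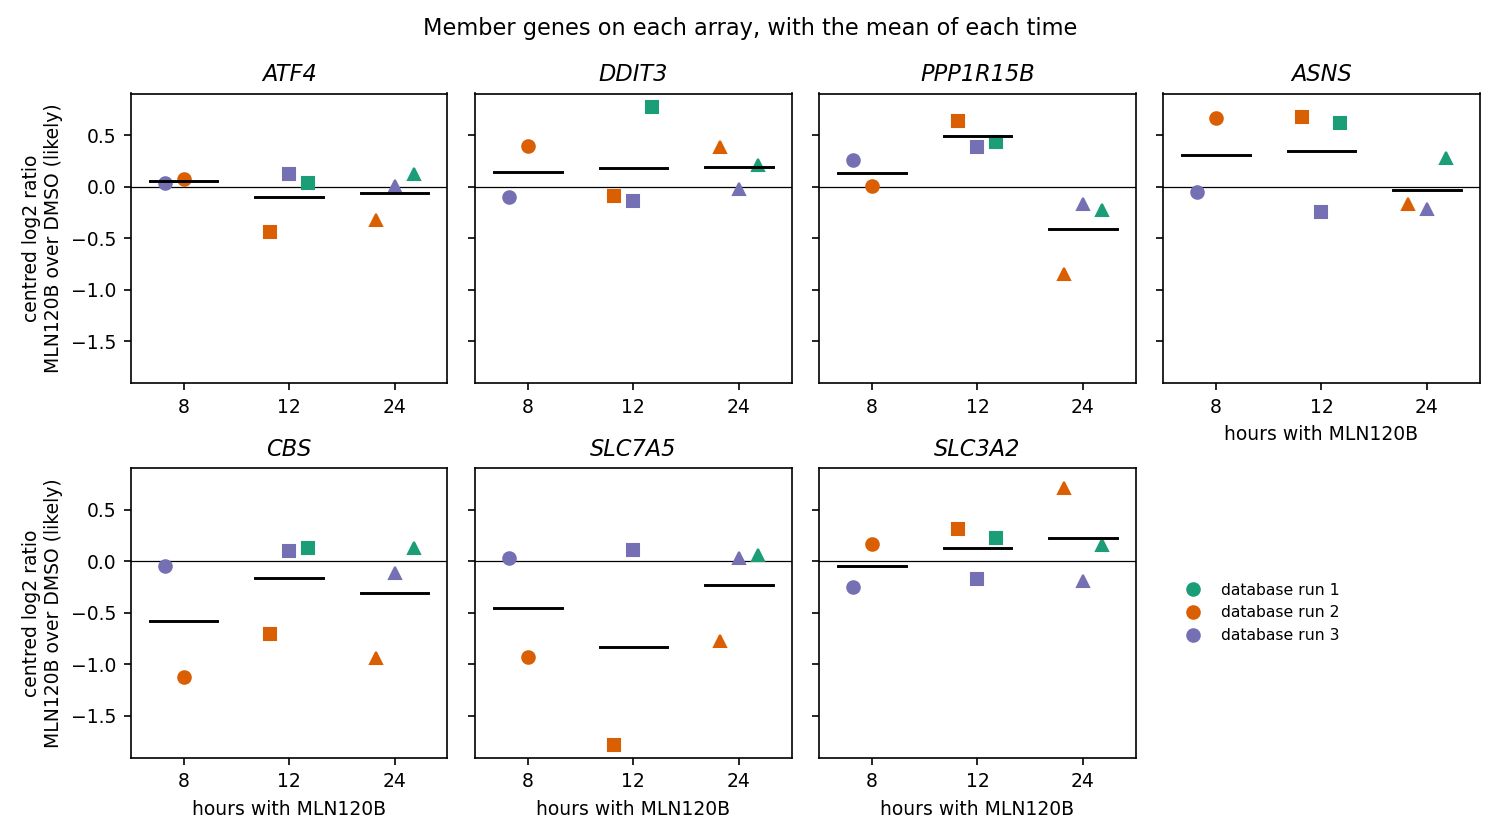
Centred log2 ratios of the 7 measured members (vertical axis) at 8, 12 and 24 h (horizontal axis). Each point is 1 array, coloured by database run, and the black line is the mean of a time. The lowest points, those of SLC7A5 and CBS down to -1.78 and -1.12, all belong to run 2, and PPP1R15B lies above 0 on all 5 arrays at 8 h and 12 h and below 0 on all 3 at 24 h.

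Among the regulators, ATF4, the transcription factor at the centre of the response, stayed close to the array median. Its ratios were 0.032 and 0.072 at 8 h, -0.44, 0.12 and 0.032 at 12 h, and -0.32, 0.0088 and 0.13 at 24 h. The values below 0 were both on arrays of run 2, and the other 6 lay above 0. The mean over the 3 times was -0.035 ± 0.13 (SE), with a 95% interval from -0.32 to 0.25 and an adjusted p of 0.97. Without run 2 the mean was 0.060 ± 0.10, and it was also above 0 without sample 1 at 12 h (0.023) or sample 1 at 24 h (0.0082). The 5 ATF4 features disagreed most on those arrays: they ran from -1.24 to 0.061 on sample 1 at 12 h and from -1.90 to 0.48 on sample 1 at 24 h. On run 3 the features of ATF4 lay within 0.45 to 0.53 of each other on every array.

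DDIT3, which encodes the stress-induced factor CHOP, was highest on sample 3 at 12 h. Its ratios were -0.098 and 0.39 at 8 h, -0.090, -0.14 and 0.78 at 12 h, and 0.39, -0.023 and 0.21 at 24 h. Both arrays of run 1 were above 0 and all 3 of run 3 below it. Every time held values on both sides of 0, and at 8 h the value above 0 was on run 2. On sample 3 at 12 h the 5 features ran from 0.66 to 0.83, and their mean was at percentile 97.7 of the rows measured on that array. On run 2 the features went in opposite directions. One was at 1.47, 1.19 and 0.82 on its 8 h, 12 h and 24 h array, and another was at -0.40, -0.99 and -0.17 on the same arrays. The mean of DDIT3 over the 3 times was 0.17 ± 0.15 (SE, adjusted p = 0.87), and 0.10 ± 0.15 without run 2.

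**Figure D2:**
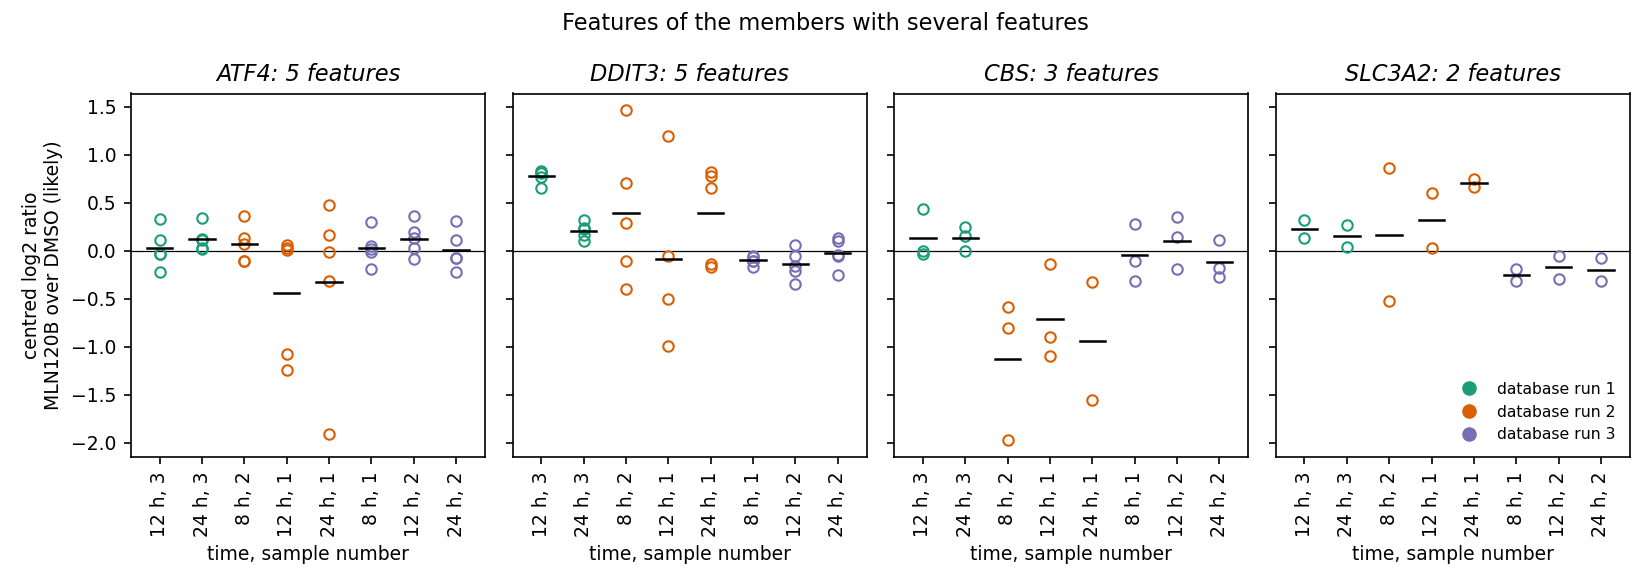
Centred log2 ratio (vertical axis) of each feature of ATF4, DDIT3, CBS and SLC3A2 on the 8 arrays (horizontal axis, as time and sample number, ordered by database run). Open circles are features and black lines their mean. The features of DDIT3 lie within 0.17 to 0.22 of each other on the 2 arrays of run 1 and within 0.99 to 2.18 on the 3 arrays of run 2.

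PPP1R15B encodes the constitutive subunit that directs a phosphatase to eIF2 and so reverses the response. It was above 0 on every array at 12 h, as 14.1% of rows with 3 values there were, and below 0 on every array at 24 h, as 14.2% were. Its ratios were 0.26 and 0.011 at 8 h, 0.64, 0.39 and 0.44 at 12 h, and -0.85, -0.17 and -0.22 at 24 h. The 12 h and 24 h groups do not overlap; the 12 h arrays all lay above the 24 h arrays in 4.71% of 3420 rows. All 12 h arrays above 0 with all 24 h arrays below 0 was found in 1.23% of those rows. The means were 0.14 ± 0.18 (SD, n = 2), 0.49 ± 0.13 (n = 3) and -0.41 ± 0.38 (n = 3) at the 3 times. Without sample 1 the 24 h mean was -0.20. Over the 3 times the mean was 0.070 ± 0.13 (SE, adjusted p = 0.92), and 0.16 ± 0.10 without run 2.

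The difference of 24 h from 12 h for PPP1R15B was -0.90 ± 0.30 (SE), with a 95% interval from -1.57 to -0.23. Arrays were not paired in this fit, and with the run as a fixed block the same difference had an SE of 0.26. In the unpaired fit limma gave PPP1R15B an unadjusted p of 0.014, the smallest of the 5320 rows in that comparison, and an adjusted p of 1. There 37 rows (0.695%) were under 0.05 unadjusted. Members were chosen with earlier results of these data known, so this rank is not independent support. By sample number, the difference was -1.49 for sample 1 (run 2), -0.56 for sample 2 (run 3) and -0.66 for sample 3 (run 1). A difference below 0 for all 3 numbers was found in 20.6% of rows with 6 values and in 2 of 6 members. The other was CBS, at -0.23, -0.22 and -0.0012 for samples 1 to 3. Without run 2 the difference for PPP1R15B was -0.61 ± 0.22. At 12 h PPP1R15B was also the only member at an unadjusted p under 0.05 in limma's test (0.044, adjusted p = 0.94), against 3.23% of rows. These values rest on 1 feature. The other 2 features annotated to PPP1R15B had values on 2 arrays each and were left out. One was at 2.31 on the 8 h array of sample 2 and the other at 2.31 on the 12 h array of sample 1, both of run 2, and on sample 3 at 24 h they were at -0.15 and -0.24. With all 3 features averaged, a setting chosen after seeing the data, the 8 h mean of PPP1R15B was 0.71 and the 12 h mean 0.77.

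**Figure D3:**
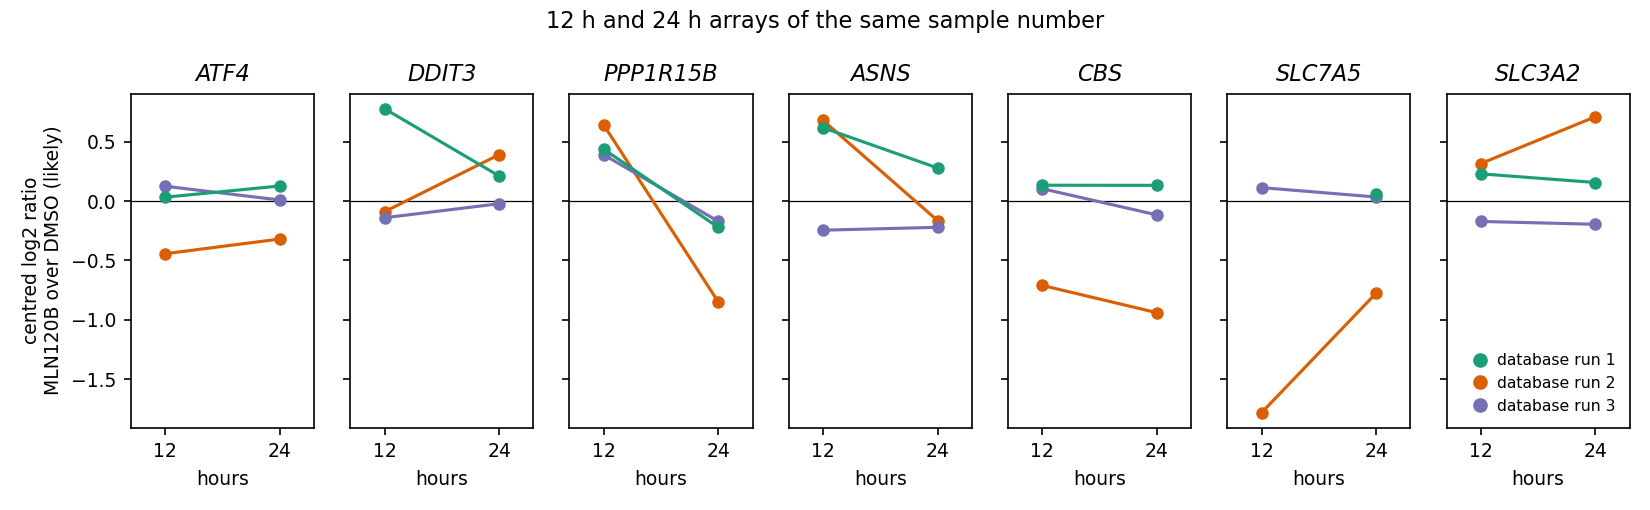
Centred log2 ratios (vertical axis) of the 7 members at 12 h and 24 h (horizontal axis), with a line joining the arrays of the same sample number, coloured by database run. For PPP1R15B all 3 lines cross 0 downwards; for ASNS the lines of samples 1 and 3 fall by 0.84 and 0.34 and that of sample 2 does not.

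Among the enzymes, ASNS makes asparagine, and a promoter window of it held the letters shown above. It lay on 1 side of 0 within run 1 and within run 3, and on both sides within run 2. Its ratios were -0.051 and 0.67 at 8 h, 0.68, -0.24 and 0.62 at 12 h, and -0.16, -0.22 and 0.28 at 24 h. All 3 arrays of run 3 were below 0 and both of run 1 above it. Every time held values on both sides of 0, and at 8 h the value above 0 was on run 2. The mean over the 3 times was 0.21 ± 0.16 (SE), with a 95% interval from -0.15 to 0.57 and an adjusted p of 0.87, and it was 0.055 ± 0.16 without run 2. The mean differed by -0.39 ± 0.36 between 24 h and 12 h (adjusted p = 1).

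CBS, which joins serine to homocysteine on the way to cysteine, was low on run 2 alone. Its ratios were -0.047 and -1.12 at 8 h, -0.71, 0.10 and 0.13 at 12 h, and -0.94, -0.12 and 0.13 at 24 h. The 3 values under -0.5 were those of run 2, and the other 5 lay between -0.12 and 0.13. The mean over the 3 times was -0.35 ± 0.19 (SE), with a 95% interval from -0.78 to 0.078 and an adjusted p of 0.87. Without run 2 it was 0.026 ± 0.11, with an interval from -0.22 to 0.28. Each of the 3 CBS features had a mean below 0, from -0.36 to -0.26, and each was below 0 wherever run 2 gave a value. CBS has a near-identical copy, CBSL, from which array features may not separate it.

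The chains of the transporter for large neutral amino acids had ratios of opposite sign on 6 of the 7 arrays that measured both. How often other gene pairs did so was not computed. These 6 were the arrays of runs 2 and 3, and on run 3 SLC7A5 was close to 0 (0.033 to 0.11). On sample 2 at 8 h the SLC3A2 features ran from -0.52 to 0.86, so they did not share a sign. For SLC7A5, the light chain LAT1 that carries the amino acids, ratios were 0.033 and -0.93 at 8 h, -1.78 and 0.11 at 12 h, where sample 3 had no value, and -0.78, 0.034 and 0.061 at 24 h. The 3 values of run 2 averaged -1.16 and stood at percentiles 5.30 to 20.6 of their arrays, and the other 4 lay between 0.033 and 0.11. For SLC3A2, the heavy chain 4F2hc that takes LAT1 to the membrane, ratios were -0.25 and 0.17 at 8 h, 0.32, -0.17 and 0.23 at 12 h, and 0.71, -0.20 and 0.16 at 24 h. They were below 0 on all 3 arrays of run 3, at percentiles 4.29 to 19.6, and above 0 on the other 5.

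Neither chain passed over the 3 times. SLC7A5 averaged -0.50 ± 0.26 (SE), with a 95% interval from -1.09 to 0.085, and SLC3A2 averaged 0.10 ± 0.15, with an interval from -0.23 to 0.43; the adjusted p-values were 0.87 and 0.89. Without run 2 SLC3A2 was at -0.081 ± 0.12, while SLC7A5 then had 1 value at 12 h and was not fitted. The SLC3A2 features were at 0.86 and -0.52 on sample 2 at 8 h, the widest gap between them.

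**Figure D4:**
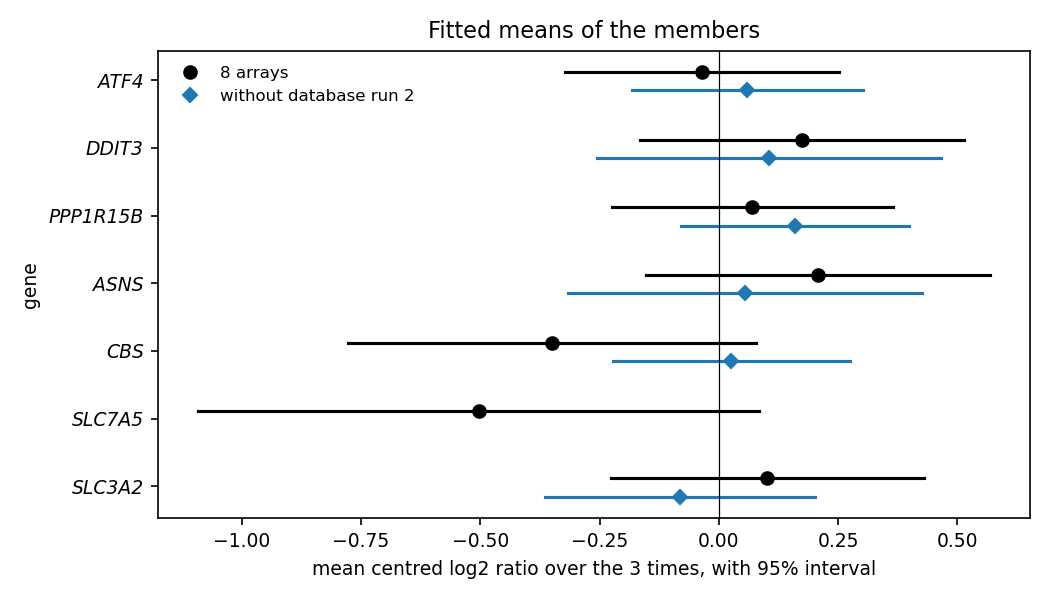
Mean centred log2 ratio over the 3 times (horizontal axis) of each member (vertical axis) with its 95% interval from limma's fit, over 8 arrays (black) and without database run 2 (blue; SLC7A5 could not be fitted). Every interval includes 0, and the mean of CBS moves from -0.35 to 0.026 without run 2.

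Place within the array does not depend on the log base. In run 2, 2 of the 7 members, SLC7A5 and CBS, were below 0 on all 3 arrays, against 22.2% of rows. In run 3, 3 members, ASNS, DDIT3 and SLC3A2, were below 0 on all 3 arrays, against 25.6% of rows. With 7 members these counts are close to the shares over all rows. On sample 3 at 12 h, of run 1, all 6 members measured were above 0, where 60.8% of rows were. PPP1R15B stood at percentiles 80.5 to 97.3 on the 12 h arrays and at 18.2 to 23.1 on the 24 h arrays.

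**Figure D5:**
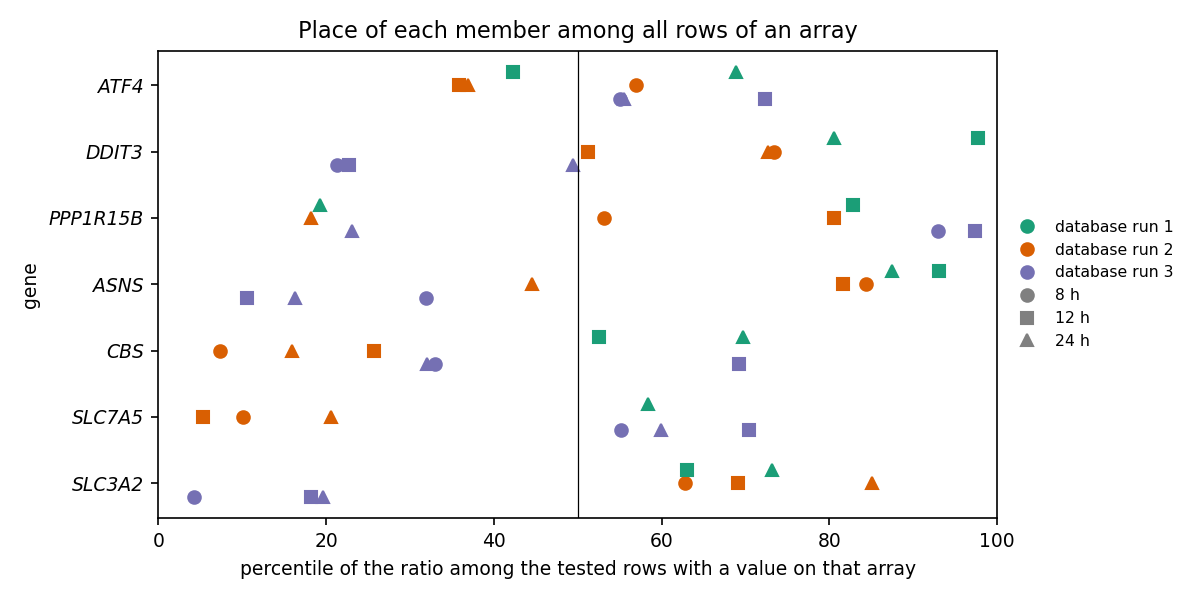
Percentile of each member's ratio among the tested rows with a value on the same array (horizontal axis), by gene (vertical axis). Each symbol is 1 array, its colour the database run and its shape the time. For PPP1R15B the 24 h arrays (triangles) are at 18.2 to 23.1 and the 12 h arrays (squares) at 80.5 to 97.3, and for SLC7A5 and CBS the arrays of run 2 lie at 25.8 or lower.

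The differences between 24 h and 8 h ranged from -0.55 ± 0.33 for PPP1R15B to 0.28 ± 0.48 for CBS (SE; limma's adjusted p from 0.99 to 1.00). All 95% intervals of these differences included 0, as they did for ATF4 (-0.84 to 0.62) and DDIT3 (-0.81 to 0.91). Runs 2 and 3 each hold 1 array at 8 h and 1 at 24 h. Within them the difference was -0.86 and -0.43 for PPP1R15B, -0.83 and -0.17 for ASNS, and 0.54 and 0.057 for SLC3A2. For CBS it was 0.18 and -0.070.

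Other genes of the pathway were taken from 6 lists. Of 172 genes 69 were tested; 37 had a mean over the 3 times above 0 and 32 below, with a median of 0.017. Limma called 0 of them, and 2 had an unadjusted p under 0.05, CTH and TSC1, against 3.52% of rows. Among 59 of these genes with 8 values, 3 had all of them below 0: CTH, PPP1CA and SHMT1, the last chosen after its values were seen; 2.51% of all rows with 8 values had them on 1 side of 0. CTH, which completes the route from CBS to cysteine, ran from -0.85 to -0.020 with a mean of -0.34 ± 0.12 (SE, adjusted p = 0.87), and it was at -0.27 without run 2. PPP1CA, a catalytic subunit that works with PPP1R15B, ran from -1.05 to -0.10 with a mean of -0.31 ± 0.15, and it was at -0.14 without run 2. SHMT1, which interconverts serine and glycine, ran from -1.03 to -0.022.

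Kinases and subunits of the eIF2 step had a median of 0.028 over 11 tested of 22 listed, 6 of them above 0. PPP1R15A, the stress-induced counterpart of PPP1R15B, was at -0.22 ± 0.16 and at 0.0014 without run 2. EIF2B2, a subunit of the exchange factor for eIF2, was at 0.18 ± 0.17, and at 0.23 without run 2. The adaptor NCK1 was at 1.06 ± 0.48, with 5.53 on 1 array as its highest value, and at 0.051 without run 2. That value of 5.53 was on sample 2 at 8 h, an array of run 2. Without sample 1 at 8 h this array alone stands for its time, and the mean of NCK1 over the 3 times was then 1.98. Partners of ATF4 and stress regulators had a median of 0.020 over 17 of 31, with 10 above 0. The extremes were EIF4EBP1, a brake on translation, at 0.23 ± 0.16, KLF4 at 0.22 ± 0.36, the AP-1 subunit JUN at -0.50 ± 0.45 and the cell cycle inhibitor CDKN1A at -0.36 ± 0.24. Without run 2 these 4 genes were at 0.10, 0.0064, -0.10 and 0.15, so that CDKN1A changed sign.

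Amino acid synthesis enzymes had a median of -0.0026 over 18 of 37, with 8 above 0, and of 0.051 without run 2. MTHFD2, of mitochondrial folate metabolism, was at 0.23 ± 0.15, SAT1, of polyamine breakdown, at 0.22 ± 0.12, and PYCR1, of proline synthesis, at -0.58 ± 0.37. Without run 2 they were at 0.13, 0.14 and 0.096. Amino acid transporters had a median of -0.036 over 5 of 31, with 2 above 0, from SLC25A13 at 0.079 ± 0.14 and SLC1A4 at 0.0043 ± 0.13 to SLC38A2 at -0.088 ± 0.12 and SLC7A6 at -0.32 ± 0.26. Without run 2 SLC1A4 was at -0.14, SLC38A2 at -0.039 and SLC7A6 at 0.036, and SLC25A13 was not fitted. Aminoacyl-tRNA synthetases and partners had a median of 0.064 over 9 of 24, with 7 above 0, where 47.8% of all rows were. Among them AIMP1 was at 0.24 ± 0.12, GARS1 at 0.20 ± 0.14, AARS1 at -0.036 ± 0.16 and LARS1 at -0.23 ± 0.22, and without run 2 they were at 0.15, 0.18, 0.039 and -0.21. Genes of mTORC1 and amino acid sensing had a median of -0.00089 over 10 of 28, with 5 above 0, and of 0.0061 without run 2. They included TSC1, an mTORC1 inhibitor, at 0.61 ± 0.24 over 7 arrays, RRAGA at 0.21 ± 0.13, TFEB at -0.14 ± 0.24 and SAMTOR at -0.21 ± 0.22. Without run 2 RRAGA, TFEB and SAMTOR were at 0.13, -0.095 and -0.0076, and TSC1 was not fitted. Adjusted p-values of the genes named in these lists were 0.87 to 0.99 in limma's test.

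Markers of other cells gave medians of 0.043 for 10 T cell genes, -0.11 for 5 myeloid genes and 0.053 for 7 stroma genes, and 12 plasma cell genes had a median of 0.18; limma called 0 in each list. Without run 2 the medians were 0.053, 0.027, -0.028 and 0.22, with the other sign for myeloid and stroma genes. Their part in the members' ratios was not tested.

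Among 2240 other named genes with 8 values, the gene most like each member was taken as that with the smallest root mean square difference over the 8 arrays, each array divided by its SD. It was EWSR1 for ATF4 (0.26 SD), SLC30A5 for DDIT3 (0.16), CSTF3 for PPP1R15B (0.46), CXCL5 for ASNS (0.23), MCL1 for CBS (0.27) and GLUL for SLC3A2 (0.25), where the median over all genes ran from 0.76 for ATF4 to 1.26 for PPP1R15B. MCL1, like CBS, was at -0.90, -0.93 and -0.74 on the arrays of run 2 and between -0.083 and 0.27 on the others. CSTF3, like PPP1R15B, was above 0 on all arrays at 8 h and 12 h and at -1.23, -0.26 and -0.092 at 24 h. SLC7A5, with 7 values, was left out of this search. These likenesses follow from the choice of the closest gene and describe 8 arrays that share runs and the DMSO control design.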

How the data were processed

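The authors deposited log2 ratios, 1 column per array, for 15246 features. How the authors corrected background, filtered spots and centred the arrays is not given in the sources used here. Direction and base were read from labels and values: base 2 is assumed for all arrays, since only sample 2 at 8 h reaches a size (12.4) beyond a natural log ratio of 16-bit intensities (11.1). Array medians as deposited were 0.001 and -0.096 (8 h, samples 1 and 2), -0.38, -0.006 and -0.15 (12 h, samples 1 to 3) and -0.48, 0.001 and -0.0055 (24 h); each was subtracted.

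Features were named from the platform annotation (10169 with 1 gene, 4 with several, 5073 with none), with symbols updated through RefSeq identifiers of GRCh38.p14 (10128 by Entrez identifier, 17 by accession, 24 kept). Features with values on at least 5 arrays were averaged by gene. Rows with values on 2 arrays at each time were tested: 5320, of which 3220 were named genes. Limma 3.58.1 (lmFit and eBayes, R 4.3.3) was run on the 8 arrays with 1 mean per time and 5 residual degrees of freedom. Means were tested 2-sided against 0. The DMSO channel is part of each ratio, and the spread between DMSO cultures enters the test only as far as the arrays used separate ones. Benjamini-Hochberg adjustment covered all rows, with a threshold of 0.05. The labels do not say whether samples of a time were separate cultures; p-values then reflect only how these samples vary, in part perhaps technically. The number of arrays limits the precision.

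On simulated data (5320 rows, each with its observed SD), the fit for the mean over 3 times recovered 97% of changes of 2 and 10% of changes of 0.5 on the log2 scale. These shares hold for rows with the same SD on every array. Recovery with the unequal spread of the real arrays, or with arrays of a run deviating together, was not tested. Same-numbered arrays at 12 h and 24 h deviated together (correlations 0.19 to 0.28 over 3420 rows, 3 pairs), where the numbers also share a database run. The 8 h arrays deviated with the later arrays of their run (0.15 to 0.32, 4 pairs), which carry the other number; with 2 arrays at 8 h the same-number values are these with the sign turned. The numbers therefore pair 12 h with 24 h only, and the run pairs all times.

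Members and lists were chosen with earlier results of these data known. Named were all members, the 2 highest and 2 lowest means of each pathway list, and the gene most like each member. Marker lists are described by counts and medians. Alternatives were the values as deposited, quantile normalization, other filters, features on their own, sample number or database run as a block, array weights, leaving out run 2 or each array, and, chosen after seeing the data, averaging all features of a gene. Tables and plots were made in Python 3.11.15 (pandas 2.3.3, matplotlib 3.10.9).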

Additional observations from a re-analysis of the deposited data

Results flagged for a closer look

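PPP1R15B was above 0 on every array at 8 h and at 12 h and below 0 on every array at 24 h, which singled out 2 of its differences. The pattern of 12 h and 24 h was found in 1.23% of 3420 rows, and the share for 8 h and 24 h was not counted. On sample 2 at 8 h the value was 0.011 after an array median of -0.096 was subtracted, so its sign depends on the centring. From 8 h to 24 h the difference was -0.55 (limma's adjusted p = 0.99), and from 12 h to 24 h it was -0.90 (adjusted p = 1). Neither passed the test of the difference.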

How the results depend on the processing

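No member passed in any of 732 fits of the members under 18 alternatives at gene level (adjusted p from 0.33 to 1), or in 108 fits of their single features. With the run as a fixed block, CBS averaged -0.29 over the 3 times and SLC7A5 -0.41. Limma's intervals for both then excluded 0 (-0.53 to -0.051 and -0.81 to -0.0015), and those of the other members included it. In that test the unadjusted p was 0.025 and 0.049, and the adjusted p 0.36 and 0.43. Both genes were low on run 2 only, and this fit still includes the arrays of run 2. Means over the 3 times changed sign as follows. Without centring, where the median of all rows lay at -0.12, PPP1R15B was at -0.059 and SLC3A2 at -0.027. After quantile normalization ATF4 was at 0.036 and SLC3A2 at -0.075, with array weights 0.059 and -0.050, and without run 2 0.060 and -0.081, where CBS was at 0.026. With 1 array left out ATF4 ran from -0.072 to 0.023. The causes were not tested. With the sample number as a replicate block PPP1R15B still differed by -0.90 between 24 h and 12 h (adjusted p = 1), and over all alternatives this difference ran from -1.17 to -0.61; the block changed no member's call. Of 366 member means at single times under alternatives, 9 moved by more than the SD of their time. Leaving out 1 of 2 or 3 arrays cannot move their mean by that much, so fits without 1 array or without run 2 could not count. SLC7A5 at 12 h went from -0.83 to 0.0062 with array weights and did not count, its SD being 1.34. The count of rows called, 0 in the fits reported, was 2 over the 3 times and 2 at 24 h after quantile normalization, and 6 over the 3 times with the run as a fixed block. It was 3 at 8 h and 3 for 24 h against 8 h with the sample number as a replicate block, and 2 over the 3 times, 4 at 8 h and 2 for 24 h against 8 h on rows with values on at least 5 arrays. Leaving out 1 array gave 0 to 35 over the 3 times, 0 to 84 at 8 h and 0 to 51 for 24 h against 8 h, the higher counts all without sample 1 at 8 h. SLC7A5 could not be fitted without run 2, without sample 1 or 2 at 12 h, or on rows with all 8 values. Intensities were not used here, and how far features lay above background is unknown.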
